A study of Danio rerio with 26 samples.

Results

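The unlesioned dorsal subventricular zone (SVZ) of the adult zebrafish telencephalon was compared with the unlesioned dorsal parenchyma beneath it, as whole tissue. The members were defined by their sample labels, but the comparison and the gene lists were chosen with earlier results of these data known. They are 5 of the 26 arrays of the series, 3 from the dorsal SVZ and 2 from the parenchyma. All came from the reporter line Tg(gfap:gfp)mi2001, in which the promoter of gfap, an intermediate filament gene of radial glia, drives green fluorescent protein, and from fish aged 3 to 6 months under normal husbandry. These 5 arrays and 2 of a medial neurogenic zone were from fish without a lesion, and arrays of the dorsal SVZ and parenchyma labelled as 2 and 7 days after a stab wound, 3 in each group, were used beside them. Arrays of the medial zone at day 2 (4 arrays) and day 7 (3 arrays) entered the fit and the choice of probe sets alone. The treatment text that accompanies the labels describes a microinjection into the brain ventricle and not a stab, and does not say which fish received it, so lesion and no lesion are used here as the sample titles give them. Each array is labelled as a biological replicate, with neither the number of fish behind it nor any sorting of the green cells given, so p-values measure the spread between arrays, some of which may be technical.

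In teleost fish both sides of the pallium fold outwards during development, so that the ventricle comes to lie on top of the brain under a thin roof, the tela choroidea, and the pial surface above it. Radial glia have their cell bodies along this ventricular surface, send long processes into the parenchyma, and act as the stem cells of adult neurogenesis, most of them held quiescent at any time by Notch signalling. They also do the work that astrocytes do in mammals, such as clearing glutamate and buffering potassium. The question of the comparison was which genes mark this ventricular layer, beyond the known radial glia and Notch genes.

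Values are log2 intensities of 19260 genes, each read by 1 probe set, so that a difference of 1 means 2-fold and the levels of different genes are not set against each other. A gene was called at an adjusted p under 0.05, from limma with Benjamini-Hochberg adjustment over all 19260 genes. The median of the whole table was 3.09, and a group mean under it is not shown to be above background, so a fold against such a group is not exact. A signed or bare value in parentheses after a gene is its log2 fold change, dorsal SVZ minus parenchyma, without a lesion. Across the genes above their median level, the 3 SVZ arrays correlated at 0.962 to 0.966 with each other, the 2 parenchyma arrays at 0.943, and SVZ with parenchyma arrays at 0.87 to 0.903. The number of arrays limits the precision: on simulated data of this design, 51% of changes of 1 and 93% of changes of 2 on the log2 scale were found, with 7 false calls. Only 100 genes changed by each size there, and the adjustment depends on how many genes change. Each gene was also given the same spread on all arrays. In the real data, weights estimated from the spread were 0.682 for both parenchyma arrays and 1.158 to 1.369 for the SVZ arrays, a lower weight meaning more spread. The share found may thus differ in the real data. In whole tissue, more cells of a type and more RNA per cell cannot be told apart.

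The tissue labels were checked on genes of known cell types. Among the glial genes, s100b, a calcium-binding protein of glia, read 10.60, 10.24 and 10.31 on the SVZ arrays against 8.14 and 7.35 in the parenchyma (log2 fold change 2.64 ± 0.29 SE, adjusted p = 1.01e-06). The brain fatty acid binding protein gene fabp7a read 11.47, 11.48 and 11.29 against 9.79 and 9.36 (1.84 ± 0.23, adjusted p = 8.73e-06). All SVZ arrays were above both parenchyma arrays for these genes. The reporter's own gene gfap did not follow them: it read 7.08, 7.5 and 7.31 in the SVZ and 8.09 and 7.18 in the parenchyma, overlapping ranges with an adjusted p of 0.708. Neuronal RNA was present on all 5 arrays, since the synaptic protein gene snap25a read 9.90 to 10.10 in the SVZ and 10.16 and 10.36 in the parenchyma, a difference of -0.25 that was not called (adjusted p = 0.612). The macrophage gene mpeg1.1 read 4.36 to 4.80 in the SVZ and 4.54 and 4.4 in the parenchyma and was not called (adjusted p = 0.935). SVZ replicate 1 stood apart for stimulus-induced genes: the 37 immediate early genes averaged 5.82 on that array against 4.88 to 4.99 on the other 4, and no member was called.

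The dorsal SVZ differed from the parenchyma in 1289 genes, 6.69% of those tested. Of these, 941 were higher in the SVZ (4.89%) and 348 were lower (1.81%), and 696 of the first and 179 of the second differed by more than 2-fold. Only 4 genes were lower by more than 8-fold, against 61 that were higher by as much. The arrays of the groups did not overlap, whatever the test, for 3740 genes in the higher direction (19.4%) and 3286 in the lower (17.1%). The split between higher and lower rested on how the arrays were scaled: it was 698 to 504 after a further quantile normalization and 656 to 1075 with the array medians subtracted, which moved the median of all genes from 0.00 to -0.19. Leaving out parenchyma replicate 1 gave 798 calls and leaving out SVZ replicate 1 gave 803. Of the genes called, 354 of the 941 higher and 65 of the 348 lower were called without any 1 of the 5 arrays.

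**Figure D1:**
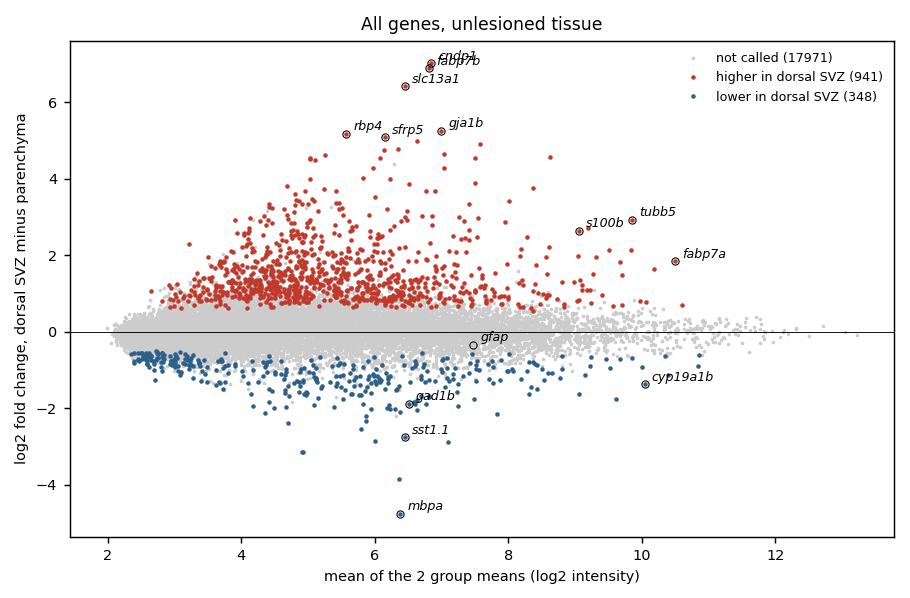
Each point is a gene, with the mean of the dorsal SVZ and parenchyma group means on the horizontal axis and the log2 fold change (dorsal SVZ minus parenchyma) on the vertical axis. The 941 genes called higher reach a log2 fold change of 7.02 (cndp1), whereas the 348 called lower reach -4.77 (mbpa), and gfap lies among the genes that were not called.

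The regional difference was also measured between arrays taken after the wound. Their group means come from other arrays, but the spread between arrays and the choice of probe sets were taken over all 26 arrays, so that the sets of calls are not independent. Fitted on the arrays of each comparison alone, the calls numbered 893 without a lesion, 873 at day 2 and 1120 at day 7. In the fit to all arrays, at day 2 after the wound 1345 genes (6.98%) were called between dorsal SVZ and parenchyma, 916 higher (4.76%) and 429 lower (2.23%), a split that was 692 to 901 with array medians subtracted and 816 to 629 after quantile normalization. At day 7 there were 1621 (8.42%), 976 higher (5.07%) and 645 lower (3.35%), or 709 to 1272 with array medians subtracted. Of the 941 genes higher without a lesion, 540 were called higher at day 2 (57.4% of the 941 and 59% of the 916) and 1 was called lower. At day 7 the shared genes numbered 572 (60.8% of the 941 and 58.6% of the 976) and none was called the other way. Their median log2 fold change was 1.31 without a lesion, 0.94 at day 2 and 1.04 at day 7. Of the 348 lower genes, 126 were called lower at day 2 (36.2%, and 29.4% of the 429) and 154 at day 7 (44.3%, and 23.9% of the 645), and 2 of the 348 were called higher at day 7. The wound lies between these sets of arrays, and the difference between times was not tested.

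**Figure D2:**
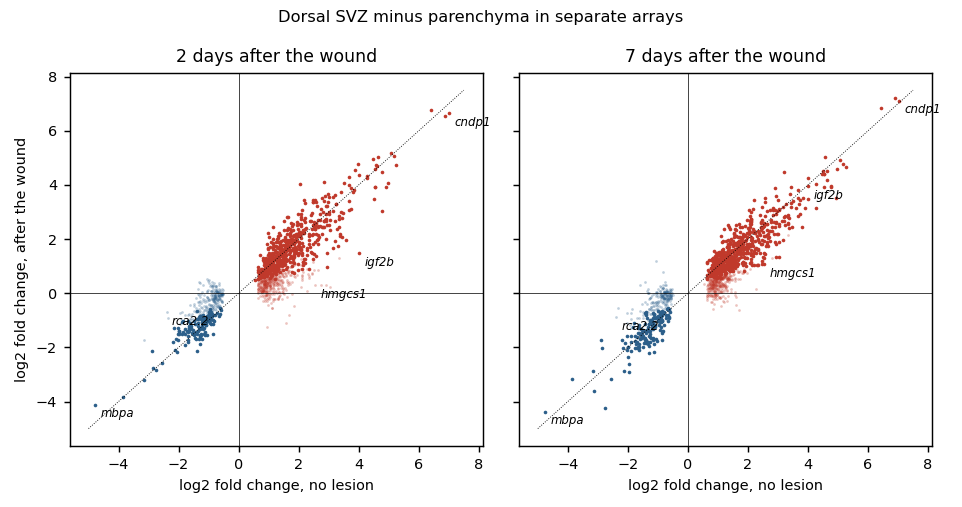
Each point is a gene called without a lesion (red higher, blue lower in the dorsal SVZ), with its log2 fold change without a lesion on the horizontal axis and that 2 days (left) or 7 days (right) after the wound on the vertical axis. Strong points were called in the same direction after the wound and pale points were not. The dotted line marks equal values, near which cndp1 and mbpa lie, while igf2b and hmgcs1 fall below it at day 2.

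Outside the radial glia and Notch lists, the strongest markers of the dorsal SVZ included genes for secreted, transport and membrane proteins. The largest difference of any gene was that of cndp1, which encodes a dipeptidase that cleaves carnosine. It read 10.66, 10.06 and 10.34 on the SVZ arrays and 3.46 and 3.21 on the parenchyma arrays, a 130-fold difference (log2 fold change 7.02 ± 0.39 SE, adjusted p = 2.29e-11). Every SVZ array was thus far above both parenchyma arrays, which lay near the median of the table. The sodium-sulfate cotransporter gene slc13a1 read 10.00, 9.76 and 9.24 against 3.17 and 3.32 (6.42 ± 0.42, adjusted p = 2.74e-10). The secreted Wnt antagonist gene sfrp5 read 8.81, 8.58 and 8.69 against 3.67 and 3.54 (5.08 ± 0.19, adjusted p = 2.37e-14). For the chemokine gene ccl25b the arrays read 9.0, 9.59 and 8.80 against 4.54 and 3.75 (4.98 ± 0.78, adjusted p = 0.000148). These genes were called at day 2 and day 7 as well, with log2 fold changes of 6.66 and 7.11 for cndp1, 6.75 and 6.83 for slc13a1, 5.19 and 4.92 for sfrp5, and 4.08 and 4.6 for ccl25b.

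Other rises in the group of the 15 largest were in lipid and adhesion genes. The adhesion molecule gene hepacama, known in mammals from glia, read 9.66, 9.76 and 9.92 against 5.12 and 5.35 (4.55 ± 0.34, adjusted p = 4.21e-09). The sphingosine-1-phosphate receptor gene s1pr1 read 9.52, 9.0 and 8.99 against 5.14 and 4.68 (4.27 ± 0.29, adjusted p = 4.9e-10). Both were high on all SVZ arrays and moderate, not absent, in the parenchyma. The lipid phosphatase family gene ppap2d read 8.97, 8.49 and 8.72 against 4.50 and 3.42 (4.77 ± 0.28). The prostaglandin D synthase gene ptgdsb.2 read 9.87, 10.60 and 9.60 against 2.94 and 7.28, so that the parenchyma arrays were far apart, and its other probe set differed by only 0.95. Also among the 15 were proca1 (4.53), the small heat shock protein gene hspb1 (4.48), and her15.2 (4.51), a hairy-related gene of the kind that Notch induces, which was not on the Notch list and whose near-identical copies a probe set may not tell apart. The parenchyma means of rbp4, tmem72, her15.2 and hspb1 were under the table median, so their folds are not exact. All 15 were called at both times after the wound and without any 1 of the 5 arrays.

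**Figure D3:**
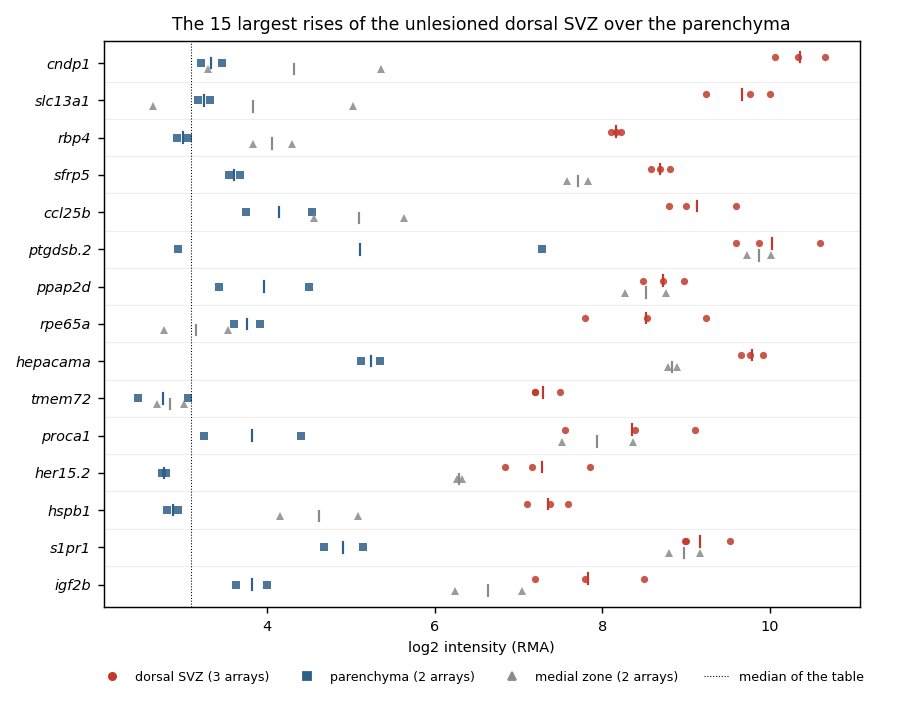
Log2 intensity of the 15 genes with the largest rises on each unlesioned array: dorsal SVZ (red circles, 3 arrays), parenchyma (blue squares, 2 arrays) and medial zone (grey triangles, 2 arrays), with short bars for group means and a dotted line at the table median of 3.09. All SVZ points lie above the parenchyma points, which the choice of these genes required. The medial zone overlaps the SVZ for s1pr1, lies somewhat below it for sfrp5 and lies near the parenchyma for rpe65a and tmem72.

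The medial neurogenic zone had lower levels of several of these genes than the dorsal SVZ. Its 2 arrays were far apart for cndp1, slc13a1 and fabp7b, medial replicate 2 being the higher each time. The comparison of the medial zone with the SVZ uses the same 3 SVZ arrays, so its values are given beside the others and not as a second result. It called 800 genes (4.15%), 456 higher in the medial zone (2.37%) and 344 lower (1.79%), or 375 to 436 with array medians subtracted. Of the 941 genes higher in the SVZ than in the parenchyma, 133 were called lower in the medial zone than in the SVZ (14.1%). Among the 15 largest rises 8 were. The medial arrays read 3.29 and 5.36 for cndp1 and 2.64 and 5.02 for slc13a1, below all SVZ arrays (medial minus SVZ -6.03 and -5.84, adjusted p = 8.63e-10 and 3.98e-09). For fabp7b, a brain fatty acid binding protein gene of the radial glia list, the SVZ arrays read 10.54, 10.17 and 10.06, the parenchyma arrays 3.17 and 3.56, and the medial arrays 3.36 and 5.66. Its log2 fold change over the parenchyma was 6.89 ± 0.46 (adjusted p = 4.9e-10), and its second probe set gave 6.36. By contrast the medial arrays read 8.79 and 9.16 for s1pr1 and 8.27 and 8.76 for ppap2d, differences from the SVZ of -0.20 and -0.22 that were not called. For sfrp5 they read 7.58 and 7.83, below all SVZ arrays but far above the parenchyma (medial minus SVZ -0.99, adjusted p = 0.00242). The gene tmem72 read 7.5, 7.19 and 7.20 in the SVZ, 3.06 and 2.46 in the parenchyma and 2.68 and 3.01 in the medial zone. Genes named after their values were seen were also higher in the SVZ than in both other regions. They were tmem98 (4.00 over the parenchyma, -4.10 in the medial zone against the SVZ), the amino acid transporter gene slc7a8b (3.81 and -3.17), the anion exchanger gene slc4a2b (3.59 and -3.42) and the chloride channel gene best1 (3.02 and -2.63). Their parenchyma means (2.78 to 3.03), and the medial mean of tmem98 (2.93), were under the table median, so these folds are not exact.

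Retinoid genes were among the strongest of this kind. Vitamin A travels as retinol on a binding protein, enters cells through a receptor, and is oxidised by dehydrogenases to retinal and then to retinoic acid, a signal that acts on nuclear receptors. The carrier gene rbp4 read 8.22, 8.16 and 8.10 in the SVZ, 3.06 and 2.92 in the parenchyma and 3.83 and 4.29 in the medial zone (5.17 ± 0.25 over the parenchyma, adjusted p = 2.47e-12). The gene of its receptor, stra6, read 6.95, 7.60 and 6.90 against 3.37 and 4.19, and 4.01 and 4.97 in the medial zone (3.37 ± 0.33, adjusted p = 2.25e-07). For rpe65a, of the family of retinoid isomerases known from the pigment epithelium of the eye, the values were 7.79, 9.24 and 8.53 against 3.60 and 3.92, and 2.77 and 3.53 in the medial zone (4.76 ± 0.48, adjusted p = 3.71e-07). In all of these the SVZ stood alone above the other unlesioned regions. The retinol dehydrogenase genes rdh8a (2.14) and rdh10a (1.51) were higher than in the parenchyma, and neither was called between the medial zone and the SVZ. The retinaldehyde dehydrogenase gene aldh1a2, whose product makes retinoic acid, was higher by 1.06 (adjusted p = 0.0332), a call that was lost without some arrays. In the whole list of 43 measured retinoid genes, 6 were called higher (14%) and 2 lower, the dehydrogenase gene rdh12 (-0.71) and the receptor gene rarab (-1.19). The list's median was 0.29, but as low as 0.15 without 1 of the arrays and 0.10 with array medians subtracted. Of these calls, 5 of the 6 higher and neither of the lower ones were made without any 1 array.

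Because the tela and the meninges cover this surface, markers of both were examined beside these genes. Of 19 measured choroid plexus and tela markers, 5 were called higher (26.3%) and none lower, and their mean level was 4.02 to 4.27 on the SVZ arrays and 3.24 and 3.25 on the parenchyma arrays. The called members were igf2b, otx2b, kcnj13, igf2a and lmx1bb, and all 5 were called without any 1 array. The homeobox gene otx2b, needed for choroid plexus formation in mice, read 5.28, 6.25 and 5.32 against 2.52 and 2.75, and 3.02 and 2.91 in the medial zone (2.98 ± 0.36, adjusted p = 5.09e-06). The growth factor gene igf2b read 8.50, 7.79 and 7.19 against 4.00 and 3.63 (4.01 ± 0.36, adjusted p = 6.2e-08), and its log2 fold change was 1.48 at day 2 and 3.95 at day 7. In the medial zone igf2b read 6.24 and 7.04 and kcnj13 5.2 and 5.86, and neither was called against the SVZ. Of the 19 markers 3 were called lower in the medial zone than in the SVZ and none higher. Another member of the list, ttr, for the thyroxine carrier transthyretin, read 2.37 to 2.63 in the SVZ and 2.43 and 2.72 in the parenchyma, under the table median everywhere. The same held for the means of enpp2, msx1a, msx1b and wnt1 in both regions.

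Of 38 meningeal and fibroblast markers, 8 were called higher (21.1%) and 2 lower, with a median of 0.17 that became -0.02 when array medians were subtracted. Of these calls, 6 of the 8 higher and 1 of the 2 lower were made without any 1 array. Their mean level was 4.58 to 4.79 on the SVZ arrays and 3.93 and 4.04 on the parenchyma arrays. The claudin gene cldn11a read 7.19, 6.05 and 5.29 against 3.98 and 3.43 (2.47 ± 0.46, adjusted p = 0.00102) and the growth factor binding protein gene igfbp2a 9.07, 8.20 and 8.44 against 5.77 and 6.5 (2.44 ± 0.45, adjusted p = 0.00109). In the medial zone cldn11a read 3.64 and 3.51 and igfbp2a 4.15 and 4.3, lower than in the SVZ. There slc6a13 read 6.98 and 8.1 and ptgdsb.2 9.72 and 10.01, and neither was called against the SVZ. Of the 38 markers 5 were called lower in the medial zone than in the SVZ and 1 higher. The matrix proteoglycan gene dcn (1.82), mgp (1.61), fbln1 (1.52), cldn11b (0.88), slc6a13 (3.73) and ptgdsb.2 were the other members called higher. The fibroblast collagen genes col1a1a, col1a1b and col1a2 were not called (0.37, 0.13 and 0.11), nor was twist1a (0.18), and lum was under the table median on all 5 arrays. Of 14 pigment cell genes 1 was called higher (7.14%), pmelb (1.67), and 1 lower (7.14%), xdh, whose levels were under the table median in both regions. The shares over all genes were 4.89% and 1.81%, so 1 gene each way is no result about pigment cells. The mean level of the list was 3.33 to 3.54 on the SVZ arrays and 3.15 and 3.29 on the parenchyma arrays. The part of tela, meningeal or pigment cells in the genes restricted to the dorsal SVZ was not tested.

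Transport genes of glia were also higher. Of 52 measured solute carriers and ion transport genes of glia, 16 were called higher (30.8%) and 3 lower (5.77%), with a median of 0.40, and 9 of the 16 were called without any 1 array. The list overlaps the radial glia list, with atp1b4, slc6a11b and slc4a4a among the called members on both, so its share is not separate from that list. The connexin 43 gene gja1b, whose channels join radial glia to each other, read 9.82, 9.68 and 9.36 against 3.92 and 4.83 (5.25 ± 0.47, adjusted p = 5.07e-08), and 10.06 and 10.08 in the medial zone. The potassium channel gene kcnj10b (Kir4.1) read 9.48, 9.20 and 9.68 against 5.86 and 5.27 (3.89 ± 0.31, adjusted p = 1.13e-08). The GABA transporter gene slc6a11b read 8.24, 8.18 and 7.91 against 3.30 and 4.36 (4.28 ± 0.33, adjusted p = 5.87e-09). In the medial zone, where cndp1 and rbp4 were lower than in the SVZ, kcnj10b read 9.26 and 9.48 and slc6a11b 8.23 and 8.58. Neither kcnj10b nor slc6a11b was called there against the SVZ. Sodium pump and bicarbonate genes were also higher, atp1b4 by 3.75, slc4a4a by 2.90 and atp1a1b by 1.65. So were the glutamate transporter gene slc1a3b (1.96) and the dicarboxylate transporter gene slc13a3 (2.09). Among the 3 members that were lower was the carbonic anhydrase gene ca2, which read 6.66, 6.43 and 6.70 against 8.37 and 8.35 (-1.77 ± 0.34, adjusted p = 0.00182).

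**Figure D4:**
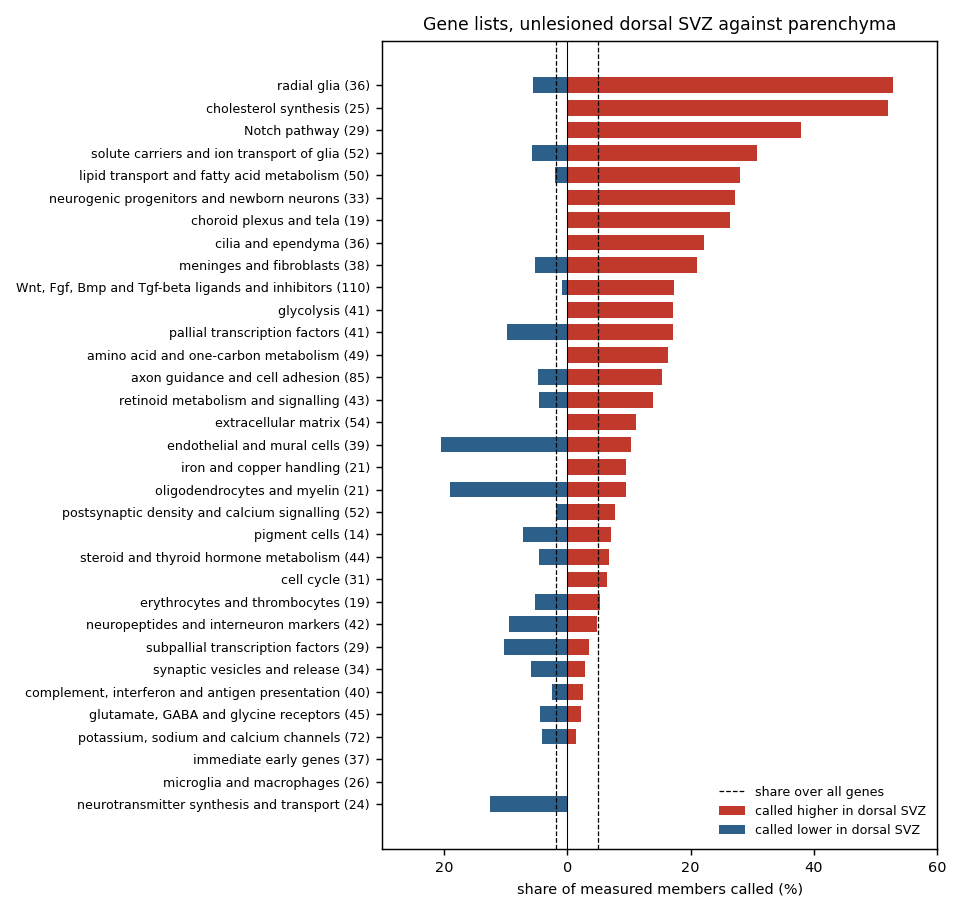
For each gene list, with its number of measured members in parentheses, bars show the share of members called higher (red, to the right) or lower (blue, to the left) in the unlesioned dorsal SVZ. Dashed lines mark the share over all genes, 4.89% higher and 1.81% lower, so that cholesterol synthesis (52%) lies beside radial glia (52.8%), while microglia and immediate early genes have no member called.

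Genes of cholesterol synthesis were called higher in a share close to that of the radial glia genes. Of 25 measured members 13 were called higher (52%) and none lower, 22 of the 25 had a positive difference, and the median was 0.89 against 0.00 over all genes. The 13 lie both in the mevalonate part of the pathway and in the later sterol part. The synthase gene hmgcs1 read 6.28, 7.17 and 6.75 against 4.28 and 4.11 (2.54 ± 0.37, adjusted p = 5.42e-05), and the rate-limiting reductase gene hmgcra read 6.41, 6.41 and 6.80 against 4.90 and 4.3 (1.94 ± 0.28, adjusted p = 5.93e-05). The squalene epoxidase gene sqlea read 6.12, 6.07 and 6.44 against 3.17 and 3.16 (3.04 ± 0.43, adjusted p = 4.83e-05). For each of these the SVZ arrays were all above the parenchyma arrays. The sterol enzyme genes cyp51 (2.33), sc5d (2.44), hsd17b7 (1.58) and msmo1 (1.54), and fdps (1.5), fdft1 (1.43), tm7sf2 (0.98), idi1 (0.89), lss (0.81) and ebp (0.81), made up the rest. Of the 13, 7 were called without any 1 of the 5 arrays. The genes of the regulators, srebf1 (0.21) and srebf2 (0.46), were not called. After the wound the list had 1 member called higher at day 2 (median 0.22) and 10 at day 7 (median 0.62), with hmgcs1 at 0.30 and 1.07 and sqlea at 0.22 and 1.32.

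Of 50 measured genes of lipid transport and fatty acid metabolism 14 were called higher (28%), 6 of them without any 1 array, and 1 lower, with a median of 0.11 that became -0.08 with array medians subtracted. Both the 14 and the 6 include fabp7a (1.84) and fabp7b (6.89), which are on the radial glia list as well. The lipoprotein lipase gene lpla, which frees fatty acids from lipoproteins, read 7.15, 6.69 and 6.56 against 3.48 and 2.75 (3.69 ± 0.29, adjusted p = 7.56e-09), and 3.91 and 3.66 in the medial zone. The secreted apolipoprotein and chaperone gene clu read 10.66, 10.69 and 10.38 against 8.41 and 8.46 (2.14 ± 0.22, adjusted p = 5.6e-07), and 7.74 and 8.29 in the medial zone. Both were thus lower in the medial zone than in the SVZ. The elongase gene elovl2 (1.89) and the desaturase gene scd (1.78) were higher, and so were genes of fatty acid oxidation, acaa2 (1.45), hadhaa (1.34), acadvl (1.07) and cpt1ab (0.96). The desaturase gene fads2 was the member that was lower (-1.13, adjusted p = 0.015).

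Of 49 genes of amino acid and one-carbon metabolism 8 were called higher (16.3%) and none lower, led by genes of serine synthesis, and 4 of the 8 were called without any 1 array. The first enzyme gene of that path, phgdh, read 7.28, 7.46 and 7.22 against 4.70 and 4.84 (2.55 ± 0.26, adjusted p = 3.21e-07), and the next, psat1, read 6.35, 5.68 and 5.53 against 3.48 and 2.39 (2.92 ± 0.32, adjusted p = 1.57e-06). The betaine-homocysteine methyltransferase gene bhmt read 5.42, 6.38 and 5.79 against 3.52 and 3.47 (2.37 ± 0.32, adjusted p = 2.34e-05). In the medial zone phgdh read 7.67 and 7.84, above all SVZ arrays, and bhmt 3.37 and 3.82, below them. The glutamine synthetase gene glula, a radial glia marker, was higher by 1.83. Of 41 glycolysis genes 7 were called higher (17.1%) and none lower, with a median of 0.04, and 2 of the 7, pdk2a and pfkfb3 (1.19), were called without any 1 array. The largest differences were those of pdk2a, for a kinase that restrains pyruvate dehydrogenase (2.86, but 1.48 in its second probe set), and eno1b (1.63). The call of eno1b was lost without parenchyma replicate 2 (1.31). Among 44 genes of steroid and thyroid hormone metabolism 3 were called higher (6.82%) and 2 lower (4.55%), with a median of -0.01. The shares over all genes were 4.89% and 1.81%. Of these calls, 2 of the 3 higher and neither of the lower ones were made without any 1 array. The enzyme gene hsd11b2, whose product inactivates cortisol, read 8.25, 6.67 and 6.40 against 3.82 and 3.65 (3.37 ± 0.47, adjusted p = 3.48e-05), and 3.07 and 4.75 in the medial zone.

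Signalling genes of the Wnt, Fgf, Bmp and Tgf-beta families formed a list of 110 measured members, of which 19 were called higher (17.3%), 11 of them without any 1 array, and 1 lower, while the median was 0.05 (-0.14 with array medians subtracted). Wnt ligands signal through frizzled receptors, and secreted frizzled-related proteins bind the ligands. Among the ligands wnt7bb read 6.60, 6.44 and 6.43 against 3.37 and 3.78 (2.92 ± 0.39, adjusted p = 1.74e-05), and wnt7aa was higher by 1.30. The secreted antagonist gene frzb read 6.47, 5.55 and 5.62 against 3.1 and 3.53 (2.56 ± 0.29, adjusted p = 1.59e-06), and 2.99 and 3.29 in the medial zone. Beside frzb, the antagonist gene sfrp1a (2.22) was higher, as sfrp5 was, and so was the Dickkopf family gene dkk3b (2.03). Chosen after their values were seen, the gene wls, needed for Wnt secretion, was higher by 3.67 and the receptor gene fzd7a by 3.23. The parenchyma mean of fzd7a (2.85) was under the table median, so its fold is not exact.

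In the Fgf family the largest difference was that of a receptor gene, fgfr2, which read 8.71, 8.30 and 8.32 against 4.55 and 4.63 (3.85 ± 0.23, adjusted p = 9.29e-11), with 7.82 and 8.50 in the medial zone. Its relatives fgfr3 (1.78) and fgfr1a (1.02), the carrier gene fgfbp3 (1.98) and the feedback inhibitor gene spry2 (0.86) were also higher. In the Bmp and Tgf-beta families the latent Tgf-beta binding protein gene ltbp3 (2.06), the Bmp antagonist gene nog2 (1.34), the ligand gene gdf10a (2.08) and the Bmp target gene id1 (1.5) were higher. The Hedgehog effector genes gli2a (1.46), gli3 (1.12) and gli1 (0.92), held in the same list, were called too. The member called lower, fgf10a, had a mean under the table median in both regions.

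Among 85 axon guidance and adhesion genes 13 were called higher (15.3%) and 4 lower, 3 of the 13 without any 1 array. The semaphorin gene sema6d read 6.29, 5.71 and 6.03 against 3.62 and 3.36 (2.52 ± 0.32, adjusted p = 9e-06), and rgma, for a repulsive guidance molecule, read 7.94, 7.54 and 7.64 against 5.95 and 6.30 (1.58 ± 0.23, adjusted p = 5.03e-05). The adhesion gene cntnap2a read 6.35, 6.58 and 6.49 against 7.56 and 7.96, lower in the SVZ (-1.29 ± 0.23, adjusted p = 0.000894). Of 54 matrix genes 6 were called higher (11.1%), 4 of them without any 1 array, and none lower, with a median of -0.02. The lysyl oxidase-like gene loxl1 read 6.40, 5.73 and 6.06 against 3.53 and 3.36 (2.62 ± 0.36, adjusted p = 2.35e-05), and sparc, for a collagen-binding glycoprotein, read 8.72, 8.52 and 8.02 against 6.13 and 5.73 (2.49 ± 0.28, adjusted p = 1.99e-06). The laminin gene lama5 (1.13), loxl2b (2.1), mmp2 (1.80) and col4a5 (0.64) were the others. The integrin gene itgav (3.17), the phosphatase gene plpp3 (2.99) and the brain proteoglycan gene cspg5b (3.67) were named after their values were seen.

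Genes of motile cilia were higher in part. Of 36 measured members 8 were called higher (22.2%), 3 of them without any 1 array, and none lower, 29 had a positive difference, and the median was 0.53. The mean level of the list was 4.33 to 4.50 on the SVZ arrays and 3.81 and 3.92 on the parenchyma arrays. The ciliary gene enkur read 5.48, 5.32 and 5.44 against 3.13 and 3.61 (2.04 ± 0.25, adjusted p = 7.39e-06). The master regulator of motile cilia, foxj1a, read 5.14, 4.97 and 4.43 against 3.34 and 3.57 (1.39 ± 0.26, adjusted p = 0.00107). The SVZ arrays were above the parenchyma for both. Also called were rfx4 (1.59), spag6 (1.14), tekt1 (1.09), rsph4a (0.94), rfx2 (0.88) and dnaaf1 (0.70). Genes of intraflagellar transport, which most ciliated cells use, were not called, with ift88 at 0.05, ift172 at 0.27 and ift74 at -0.36. The list had 14 members called higher at day 2 and 17 at day 7.

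Genes of progenitors were called more often than the background, and genes of division were not. Of 33 genes of neurogenic progenitors and newborn neurons 9 were called higher (27.3%) and none lower, 2 of them without any 1 array. The proneural gene ascl1a read 6.74, 7.19 and 6.64 against 4.96 and 5.65 (1.56 ± 0.29, adjusted p = 0.00115), a call lost without parenchyma replicate 1 (1.21, adjusted p = 0.0568). The gene sox11a, of newborn neurons, read 6.64, 6.84 and 6.45 against 5.04 and 4.06 (2.1 ± 0.27, adjusted p = 1.49e-05), and 8.39 and 7.98 in the medial zone. The tubulin gene tubb5 read 11.62, 11.11 and 11.21 against 8.11 and 8.65 (2.93 ± 0.22, adjusted p = 3.91e-09), and its log2 fold change was 0.96 at day 2 and 1.32 at day 7. Of 31 cell cycle genes only gmnn (1.66) and nusap1 (1.30) were called (6.45%), near the 4.89% of all genes. The call of gmnn was lost without parenchyma replicate 1 (1.42, adjusted p = 0.0502), and that of nusap1 without parenchyma replicate 2 (1.09) or SVZ replicate 1 (1.18). The proliferation markers pcna (0.39), MKI67 (0.62) and top2a (0.26) were not called (adjusted p = 0.467, 0.351 and 0.636). On the arrays, pcna read 8.67, 7.89 and 8.55 in the SVZ and 7.64 and 8.31 in the parenchyma, which overlapped.

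Transcription factors of the pallium separated the regions in both directions, with 7 of 41 called higher (17.1%) and 4 lower (9.76%) and a median of 0.01. The homeobox gene emx2, which patterns the cortex in mice, read 6.76, 7.09 and 7.00 against 4.04 and 4.59 (2.64 ± 0.40, adjusted p = 8.72e-05). The LIM homeobox gene lhx2b read 5.70, 5.16 and 5.44 against 2.80 and 3.86 (2.1 ± 0.36, adjusted p = 0.000507), and nfia (1.1), fezf2 (1.71), emx3 (1.16), nfixb (1.09) and nr2f1a (0.97) were the other rises. Lower were the neuronal factor genes mef2cb (-1.26), bcl11aa (-1.18) and etv1 (-1.07), and cux2a (-0.65). The call of bcl11aa was lost without parenchyma replicate 1 (-0.75, adjusted p = 0.122). Of all these calls, 3 of the 7 higher and, of the 4 lower, that of mef2cb were made without any 1 array. Named after their values were seen were otx1 (2.83), prdm16 (2.84), sox19b (3.24), dmrta2 (2.74) and the growth factor receptor regulator gene lrig1 (2.80). Of these dmrta2 read 6.35, 6.48 and 6.24 in the SVZ and 4.65 and 4.90 in the medial zone.

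The known radial glia and Notch genes gave large shares too. Of 36 radial glia genes 19 were called higher (52.8%) and 2 lower, with a median of 0.90, and their mean level was 7.36 to 7.53 on the SVZ arrays and 6.04 and 6.06 on the parenchyma arrays. Of these calls, 17 of the 19 higher and neither of the lower ones were made without any 1 array. The secreted protein gene mfge8a was higher by 4.64 and the intermediate filament gene vim by 3.02. The 2 that were lower were the aromatase gene cyp19a1b, known in teleosts as a marker of radial glia, and cd9b (-1.77). For cyp19a1b the SVZ arrays read 9.44, 9.62 and 8.99, the parenchyma arrays 10.94 and 10.52, and the medial arrays 11.07 and 10.93 (-1.38 ± 0.29, adjusted p = 0.00336). This was opposite to fabp7b, s100b and gja1b, and the call was lost without parenchyma replicate 1 (-1.17, adjusted p = 0.0785). At day 2 and day 7 cyp19a1b was called lower as well (-2.13 and -1.46). Of 29 Notch pathway genes 11 were called higher (37.9%), 6 of them without any 1 array, and none lower, with a median of 0.53. They included the target gene her4.1 (4.62), which has near-identical copies that a probe set may not tell apart, and the receptor gene notch3 (2.47). The parenchyma mean of her4.1 (2.95) was under the table median, so its fold is not exact.

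On the parenchyma side the largest difference was in myelin. The myelin basic protein gene mbpa read 4.4, 4.05 and 3.55 in the SVZ, 9.02 and 8.51 in the parenchyma and 7.99 and 8.65 in the medial zone (-4.77 ± 0.53, 27.2-fold, adjusted p = 1.41e-06). The SVZ arrays were thus below both other unlesioned regions. Of 21 oligodendrocyte and myelin genes 4 were called lower (19%) and 2 higher, with a median of -0.41 and a mean level of 4.34 to 4.45 on the SVZ arrays and 4.85 on both parenchyma arrays. The other lower members were gpr17 of maturing oligodendrocytes (-1.88), the myelin regulator gene myrf (-1.13) and zwi (-1.32), all lost without at least 1 array, gpr17 without parenchyma replicate 2 (-1.34, adjusted p = 0.114). The 2 members that were higher were cnp (1.98) and ptprz1b (1.83), the latter also known from radial glia in mammals. The lineage genes olig2 (-0.89) and sox10 (-0.20) were not called.

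Genes of GABA synthesis and vesicle loading were lower in the dorsal SVZ. GABA is made by glutamate decarboxylases and loaded into vesicles by a transporter, and all these genes were called: gad1b read 5.42, 5.43 and 5.85 against 7.18 and 7.72 (-1.88 ± 0.29, adjusted p = 0.000103), gad2 fell by 1.49 (adjusted p = 0.00145) and slc32a1 by 1.98 (adjusted p = 0.000154). In the medial zone gad1b read 9.14 and 8.63, above both dorsal regions. These were the 3 of 24 genes of neurotransmitter synthesis and transport called lower (12.5%), none was higher, and all were called without any 1 array. The glutamate transporter gene slc17a6b, of excitatory neurons, read 8.19, 8.29 and 8.28 against 8.70 and 8.74, a difference of -0.47 that was not called (adjusted p = 0.392). Of 42 neuropeptide and interneuron markers 4 were called lower (9.52%) and 2 higher (4.76%), with a median of -0.08. Over all genes 1.81% were lower and 4.89% higher, so the higher share is near that of all genes. In each direction 1 marker, pvalb6 and calb2a, was called without any 1 array. The calretinin gene calb2a, also of interneurons, read 6.26, 6.11 and 6.56 in the SVZ against 3.70 and 3.98 in the parenchyma, so it was higher (2.47 ± 0.33, adjusted p = 2.27e-05), as was the peptide gene cart4 (1.85). The members called lower were pvalb6 and sst1.1, and the peptide genes cart2 (-1.23) and crhb (-1.60, but -0.14 in its second probe set). Interneuron and peptide genes among the 15 largest falls were pvalb6, for a parvalbumin (-2.88), sst1.1, for somatostatin (-2.76), and the cart gene cart3 (-3.16). The somatostatin gene read 5.78, 4.76 and 4.69 against 7.75 and 7.91, its second probe set gave -0.91, and its call was lost without each array in turn other than SVZ replicate 1 (-2.84 to -2.56, adjusted p = 0.0597 to 0.095). Of 29 factors of the subpallium, where such neurons arise, 3 were called lower (10.3%), dlx2a (-1.73), pbx3b (-1.41) and sp9 (-1.29), and each call was lost without parenchyma replicate 1 (-1.94, -0.79 and -1.52), those of dlx2a and sp9 also without parenchyma replicate 2 or SVZ replicate 2 or 3. The proneural gene ascl1a, a member of this list as well, was the 1 called higher (3.45%).

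**Figure D5:**
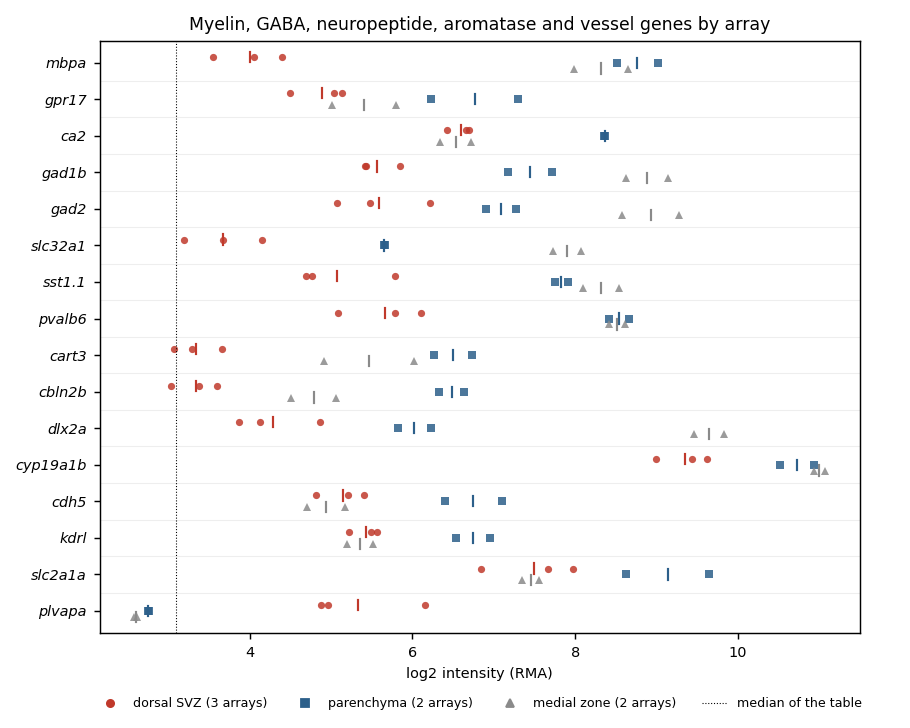
Log2 intensity on each unlesioned array of myelin, GABA, neuropeptide, aromatase and vessel genes, with symbols as for the 15 largest rises. The dorsal SVZ lies below the parenchyma for all but plvapa, and the medial zone lies near the parenchyma for mbpa, above both for gad1b and dlx2a, and near the SVZ for cdh5 and kdrl.

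Vessel genes were called in both directions. Of 39 endothelial and mural genes 8 were called lower (20.5%), 4 higher (10.3%) and 27 neither way, with a median of -0.20, and the shares over all genes were 1.81% and 4.89%. The vascular cadherin gene cdh5 read 5.41, 4.81 and 5.21 against 7.10 and 6.40 (-1.60 ± 0.27, adjusted p = 0.000329; -0.95 in its second probe set), and the blood-brain barrier glucose transporter gene slc2a1a read 6.84, 7.97 and 7.66 against 9.64 and 8.63 (-1.64 ± 0.36, adjusted p = 0.00514), a call lost without parenchyma replicate 1 (-1.14, adjusted p = 0.167). The Vegf receptor genes kdrl (-1.32), kdr (-1.32) and flt1 (-1.35), the tight junction gene cldn5b (-1.35), clec14a (-0.86) and abcb4 (-1.15) were the other falls. Only cdh5 of the 8, and 2 of the 4 that were higher, were called without any 1 of the 5 arrays. The gene plvapa, whose product forms the diaphragms of fenestrated endothelium, went the other way: it read 4.88, 6.15 and 4.96 in the SVZ, 2.75 and 2.76 in the parenchyma and 2.58 and 2.62 in the medial zone (2.57 ± 0.39, adjusted p = 0.000116). The parenchyma and medial values were under the table median. The other members called higher were notch3, which is on the Notch list as well, mfsd2ab (1.65) and slc2a1b (1.17). The apelin receptor gene aplnrb, outside the list and among the 15 largest falls, read 4.86, 4.61 and 4.83 against 6.77 and 7.16 (-2.20 ± 0.28, adjusted p = 1.06e-05).

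Several of the other falls among the 15 were in genes known from neurons. The synaptic organiser gene cbln2b read 3.38, 3.60 and 3.03 against 6.33 and 6.63 (-3.14 ± 0.38, adjusted p = 4.6e-06), and cnih3, for an auxiliary protein of AMPA receptors, read 5.10, 3.88 and 4.58 against 6.89 and 7.26 (-2.55 ± 0.42, adjusted p = 0.000244). The groups did not overlap for either, which the choice of the 15 required. The others were ndnfl (-2.85), the neurofilament gene nefma (-2.12), the Gdnf family receptor gene gfra2a (-2.09), ppp1r9alb (-2.15), rca2.2 (-2.40), the stress factor gene atf5b (-2.04), the transporter gene abcg2a (-2.02) and cd59b (-2.02). Of the 15, 13 were called at day 2 and 13 at day 7, the exceptions being rca2.2 at both times, cart3 at day 2 and abcg2a at day 7. Besides sst1.1, the call of cart3 was lost without parenchyma replicate 2 (-2.92), and that of nefma without the same array (-0.85) or SVZ replicate 1 (-1.99). Named after their values were seen were the peptide receptor gene vipr2 (-2.00), the adhesion receptor gene adgrl4 (-1.64), the splicing factor gene rbfox1l (-1.63) and lmo3 (-1.57, and -0.73 in its second probe set), the last of which was not called without parenchyma replicate 2.

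General synaptic lists had few calls, in both directions. Of 34 genes of synaptic vesicles 1 was called higher (2.94%) and 2 lower (5.88%). Of 45 transmitter receptor genes 1 was higher (2.22%) and 2 lower (4.44%), and of 72 channel genes 1 was higher (1.39%) and 3 lower (4.17%). In the main fit the lower shares were above the 1.81% of all genes and the higher shares below the 4.89%, on 1 to 3 genes each. With array medians subtracted, 1075 of all genes were called lower and 656 higher, so this order is not shown beyond the main scaling. Each of the calls in these lists was lost without at least 1 of the 5 arrays. Of 52 genes of the postsynaptic density and calcium signalling 4 were called higher (7.69%) and 1 lower (1.92%), with a median of -0.15. These shares lie near the 4.89% and 1.81% of all genes, so they are no result about this list. The scaffold gene homer3b read 6.77, 5.96 and 6.2 against 3.64 and 4.88 (2.05 ± 0.35, adjusted p = 0.000447), and the calcium sensor gene hpca read 7.33, 7.04 and 6.90 against 5.99 and 5.53 (1.33 ± 0.24, adjusted p = 0.000878). Both were called without any 1 array, unlike ncalda (1.36), nptx2a (1.26) and the lower nrxn2a (-0.74).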

How the data were processed

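Total RNA of dissected tissue was amplified, biotin-labelled and hybridised to 1 array per sample, per the labels' protocols. Per the submitters' processing notes, the authors ran RMA in Affymetrix Expression Console 1.2, a method that corrects background, normalizes by quantiles and summarises probes, and deposited log2 intensities. The table holds 75212 probe sets on 26 arrays, with array medians of 3.01 to 3.21. Scanner files were not used here, so no other background correction or scan batch was tried.

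From these values, the 20806 probe sets with exactly 1 symbol in the platform annotation gave 19260 genes. Where a gene had several probe sets (1365 genes), that of highest mean on the 26 arrays was kept. limma 3.58.1 in R 4.3.3 fitted 1 mean per group to all 26 arrays, with 4 comparisons and Benjamini-Hochberg adjustment in each. The fit was tested on simulated data. Other steps ran in python 3.11.15 (pandas 2.3.3, numpy 2.4.6) and figures in matplotlib 3.10.9.

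The members, the 33 gene lists and the rules were chosen with earlier results of these data known, so no list is independent evidence. Named genes were the 15 largest rises and falls that were called, had no overlap of arrays, a group mean above 3.09 and no clone name, and were not on the radial glia or Notch list; up to 4 members of each list with the smallest adjusted p; and the tissue checks. Other members are given as values within their list, and 19 genes were named after their values were seen.

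Replicate numbers are shared between groups. Deviations from the group means of same-numbered arrays correlated at 0.147 to 0.239 at day 2 and 0.138 to 0.212 at day 7, over 0.1 in every one of 3 pairs each, and at -0.062 without a lesion. The number was a block in an alternative fit, with the same effect in all groups and times, so a pairing within each time was not modelled. Other alternatives were array weights, quantile normalization again, array medians subtracted, the genes of lowest mean left out (12840 kept), every probe set, the median probe set, a trend and robust prior, only the groups compared, a fold of 2 as well, and each array left out.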

Additional observations from a re-analysis of the deposited data

How the results depend on the processing

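Without a lesion, the 1289 calls became 968 with array weights, 1202 after quantile normalization again, 1731 with array medians subtracted, 1250 over the 12840 genes of higher mean, 1342 over every probe set, 1245 with the median probe set, 1317 with a trend and robust prior, and 893 with only the 5 arrays compared. Asking for a fold over 2 as well left 875. With the replicate number as a block there were 1175 calls without a lesion, 1292 at day 2, 1548 at day 7 and 713 between medial zone and dorsal SVZ. This block moved no count by over 1.5 times. It gave each number the same effect in all groups and times, so it cannot show what a pairing within each time would do. Leaving out each array gave 798 to 1103 calls without a lesion, 986 to 1190 at day 2, 1137 to 1448 at day 7 and 419 to 642 for the medial zone. At day 2 the fit to only the groups compared gave 873 in place of 1345. The cause of these shifts was not tested, beyond the fewer arrays in the last settings. Of 138 named genes 130 were called. Gene by gene, the settings with every probe set and with the median probe set were not checked. Named genes among those of lowest mean could not be lost in the setting that left these out. Within these limits, 92 of the 130 stayed called, 21 were lost under 1 or more processing settings and 38 without 1 or more arrays. No called gene changed sign in the settings checked. Of genes that were not called, gfap ranged from -0.79 to 0.12 as arrays were left out, positive without parenchyma replicate 1, and mpeg1.1 from -0.05 to 0.17, with -0.15 after quantile normalization again, -0.11 with array medians subtracted, and -0.03 with the replicate block. With 2 parenchyma arrays, a call lost without 1 of them rests on a lone array assumed to vary like the other groups. Genes near the table median of 3.09 have no sure signal above background.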

Other observations

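Several further genes separated the dorsal SVZ from the parenchyma. The iron exporter gene slc40a1 read 7.29, 6.96 and 6.72 against 4.95 and 5.44 (log2 fold change 1.79 ± 0.30 SE, limma adjusted p = 0.000272), with log2 fold changes of -0.04 at day 2 and 0.74 at day 7 that were not called. The difference between times was not tested. The hydroxysteroid dehydrogenase gene hsd17b3 read 6.72, 5.34 and 6.07 against 2.66 and 2.89, and 7.11 and 6.65 in the medial zone. The metalloproteinase inhibitor gene timp4.3, named after its values were seen, read 7.02, 6.34 and 6.29 against 3.45 and 2.75. The ependymin gene epd, of a secreted protein of fish brain, read 10.29, 6.17 and 9.0 against 4.58 and 3.60, and with that spread in the SVZ it was not called despite a log2 fold change of 4.39. The parenchyma array means of hsd17b3 were under the table median of 3.09, so its fold is not exact.

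On SVZ replicate 1 the macrophage genes grna.1 and mfap4.1 read 7.01 and 6.28, against 3.93 and 3.99 on replicate 2 and 3.9 and 3.97 on replicate 3. None of the 26 measured microglia and macrophage genes was called by limma.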
